A study of Rattus norvegicus with 20 samples.

Results

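The 8 genes Lrp1b, Pgap1, Sema3e, Dio2, Fat3, Chl1, Slit2 and Rspo2 were picked for large rises in synaptoneurosomes over whole homogenate in rat ventral hippocampus. The genes were chosen by their measured differences between both fractions, in both treatments, so those differences are given below as a description, with no test. They are 8 of 22093 genes with a probe set that carries a single gene symbol, and they were measured by 9 probe sets, 2 for Sema3e and 1 for each other gene. The brightest probe set stood for its gene, and all 8 lay above the filter that kept 15465 genes for testing. The choice had no numerical threshold. When genes were ranked by the smaller of their differences in both treatments, the members held ranks 1, 2, 3, 5, 6, 7, 13 and 17. The last member inside was Rspo2 at a log2 difference of 1.49, and the next gene on the list was Lpl, also at 1.49.

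The study used male Sprague-Dawley rats aged 2 months and profiled RNA on 20 microarrays in 4 groups of 5. Synaptoneurosome mimic arrays carried RNA of the synaptic fraction from rats given bilateral injections of a miR-17-5p mimic (200 pmol in 1.5 µl) into the ventral hippocampus, and synaptoneurosome control arrays that of rats given a scrambled small RNA. Homogenate mimic and homogenate control arrays carried RNA of the whole tissue extract under the same injections. All rats had stereotaxic surgery under isoflurane and received ketoprofen. RNA of homogenate was purified on columns and that of synaptoneurosomes by isopropanol precipitation, so fraction and extraction method cannot be told apart. The submitters give 11 to 13 animals per condition, but not whether each array holds RNA of its own animal, so p-values cover the spread between arrays, which may be technical. The mimic is a small RNA with no promoter, so no cell type was targeted.

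Synaptoneurosomes are pinched-off synaptic endings, often with the postsynaptic membrane still attached, and they carry mRNAs that lie near synapses. Thin processes of astrocytes that wrap synapses are commonly retained in such fractions. The 8 genes code for proteins of the secretory pathway, whose mRNAs are translated on the endoplasmic reticulum. Sema3e, Slit2 and Rspo2 are secreted cues, Lrp1b, Fat3 and Chl1 are receptors or adhesion proteins of the cell surface, and Pgap1 and Dio2 are membrane enzymes. Guidance cues and adhesion proteins steer axons during development and shape synapses in the adult hippocampus.

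The injected agent mimics miR-17-5p, whose mature sequence from RefSeq (GRCr8) is shown because every comparison of mimic with control rests on it. Capitals mark the seed, bases 2 to 8, which pairs with target mRNAs. The other mature rat microRNAs of that table with this seed are shown beside it, since they would be predicted to share targets.
rno-miR-17-5p: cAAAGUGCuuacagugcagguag
rno-miR-20a-5p: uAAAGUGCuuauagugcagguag
rno-miR-20b-5p: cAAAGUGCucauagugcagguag
rno-miR-93-5p: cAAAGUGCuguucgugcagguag
rno-miR-106b-5p: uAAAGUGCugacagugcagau

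All values are log2 expression as deposited, so a difference of 1 is a doubling, and levels are not set against each other between genes. Synaptoneurosome arrays varied more than homogenate arrays. The median SD of a gene was 0.17 in synaptoneurosome mimic, 0.21 in synaptoneurosome control, 0.11 in homogenate mimic and 0.12 in homogenate control. Synaptoneurosome mimic 5, control 4 and control 5 stood apart, with scores of 53, 30.2 and 45.1 on the first principal component of the deviations from group means (52.2% of their variance), against -29.4 to 5.6 for the other 17 arrays. Counts of relatives are given with and without these 3 arrays, and so are some results of the members. Marker counts are given with them only. Markers of the tissue were present in both fractions, and endothelial markers fell in synaptoneurosomes, 7 of 7 tested in each treatment (limma). Over all tested genes 30.8% fell in mimic rats and 28.0% in control rats. Within a fraction, fewer cells of a type and less RNA per cell cannot be told apart in bulk samples. Between fractions, marker levels do not count cells, since synaptoneurosomes are pinched-off synaptic endings.

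Lrp1b, a giant endocytic receptor of the LDL receptor family, showed the largest difference of the set in mimic rats. It read 12.89, 12.95, 13.68, 13.66 and 12.95 on the synaptoneurosome mimic arrays, against 10.58, 10.91, 11.11, 11.05 and 10.75 on the homogenate mimic arrays. In control rats it read 12.85, 13.16, 13.70, 12.75 and 12.66 in synaptoneurosomes, against 10.89, 10.88, 10.95, 11.07 and 10.58 in homogenate. The fractions did not overlap, and mimic 3, mimic 4 and control 3 were the highest synaptoneurosome arrays. The difference was 2.35 ± 0.19 in mimic rats and 2.15 ± 0.19 in control rats (SE, 5 against 5 arrays), which is 5.08-fold and 4.44-fold.

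Pgap1 encodes an enzyme of the endoplasmic reticulum that removes an acyl chain from the inositol of GPI anchors. Its synaptoneurosome values were 13.86, 13.96, 14.75, 14.88 and 14.40 in mimic rats, against 12.21, 12.23, 12.29, 12.55 and 12.16 in homogenate. Control rats gave 14.21, 14.11, 14.68, 14.03 and 14.42 in synaptoneurosomes, against 12.37, 11.98, 11.90, 12.16 and 12.25 in homogenate. Every synaptoneurosome array lay above every homogenate array, by at least 1.31 in mimic rats and 1.66 in control rats. The differences were 2.08 ± 0.17 and 2.16 ± 0.17 in mimic and control rats.

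Sema3e is a secreted class 3 semaphorin that signals through plexin D1. Its bright probe set read 13.10, 12.96, 13.65, 13.56 and 13.88 in synaptoneurosome mimic, against 11.35, 11.45, 11.40, 11.28 and 11.58 in homogenate mimic. The corresponding control values were 12.36, 12.89, 13.60, 13.56 and 13.67 in synaptoneurosomes, against 10.57, 11.05, 10.99, 11.34 and 11.29 in homogenate. Control 1 was the lowest array of both control groups. The difference was 2.02 ± 0.23 in mimic rats and 2.17 ± 0.23 in control rats, and 1.91 and 1.90 without the 3 arrays that stood apart.

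The probe sets of Sema3e disagreed. The dimmer one read 5.12, 4.84, 4.66, 5.07 and 5.07 in synaptoneurosome mimic, against 4.89, 4.66, 4.84, 4.70 and 4.84 in homogenate mimic. In control rats it read 4.88, 4.81, 5.12, 4.69 and 4.84 in synaptoneurosomes, against 4.97, 4.96, 4.54, 4.93 and 4.89 in homogenate. These fractions overlapped, with differences of 0.17 ± 0.10 and 0.01 ± 0.10 in mimic and control rats. Only the brightest probe set of a gene was tested, so the dimmer one was not. Its mean level of 4.87 also lay below the filter level of 4.97. The mean of both probe sets gave 1.09 in each treatment. The part that probe position or dimness plays in the disagreement was not tested.

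Dio2, the deiodinase that turns thyroxine into active thyroid hormone and in brain is chiefly an astrocyte enzyme, read 10.62, 10.34, 10.60, 10.98 and 10.39 in synaptoneurosome mimic, against 8.59, 8.49, 8.50, 9.23 and 9.33 in homogenate mimic. The control arrays read 10.49, 9.91, 11.01, 10.13 and 10.38 in synaptoneurosomes, against 8.30, 8.11, 8.82, 8.43 and 9.11 in homogenate. Array 5 was the highest of both homogenate groups, while the synaptoneurosome arrays numbered 5 were not raised. The fractions stayed apart by 1.01 in mimic and 0.80 in control rats. The difference was 1.76 ± 0.23 in mimic rats and 1.83 ± 0.23 in control rats.

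Fat3, an atypical cadherin of great size, read 10.83, 10.59, 11.18, 11.30 and 11.07 in synaptoneurosome mimic, against 9.13, 9.26, 9.46, 9.30 and 9.26 in homogenate mimic. Control rats gave 10.88, 11.15, 11.20, 10.85 and 10.85 in synaptoneurosomes, against 9.47, 9.80, 9.32, 9.30 and 9.46 in homogenate. The fractions did not overlap, and homogenate control 2 was the highest homogenate array. The difference was 1.71 ± 0.12 in mimic rats and 1.52 ± 0.12 in control rats, or 3.28-fold and 2.86-fold.

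Chl1, an adhesion protein of the L1 family with immunoglobulin domains, read 16.26, 16.21, 16.66, 16.67 and 16.43 in synaptoneurosome mimic, against 14.82, 14.86, 14.88, 14.55 and 14.61 in homogenate mimic. In control rats the values were 16.15, 15.91, 16.74, 16.26 and 16.18 in synaptoneurosomes, against 14.55, 14.43, 14.66, 14.59 and 14.67 in homogenate. The fractions did not overlap, and the gap between them was 1.33 in mimic and 1.24 in control rats. Chl1 differed by 1.70 ± 0.13 in mimic rats and 1.67 ± 0.13 in control rats, and quantile scaling over the 20 arrays moved these to 2.01 and 2.17.

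Slit2, a secreted ligand of Robo receptors that repels growing axons, read 13.14, 13.19, 13.67, 13.60 and 13.84 in synaptoneurosome mimic, against 11.62, 11.95, 11.99, 11.69 and 11.87 in homogenate mimic. The control values were 12.59, 12.30, 13.28, 13.25 and 13.50 in synaptoneurosomes, against 11.18, 10.77, 11.19, 11.50 and 11.70 in homogenate. Control 2 was the lowest array in both fractions and control 5 the highest in both. The difference was 1.66 ± 0.21 in mimic rats and 1.72 ± 0.21 in control rats, and 1.58 and 1.46 without the 3 arrays that stood apart.

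Rspo2, a secreted R-spondin that strengthens Wnt signalling through Lgr receptors, read 11.73, 11.99, 12.27, 12.33 and 12.57 in synaptoneurosome mimic, against 10.51, 10.77, 10.59, 10.64 and 10.79 in homogenate mimic. Control arrays read 11.45, 11.77, 12.57, 12.07 and 12.07 in synaptoneurosomes, against 10.09, 10.26, 10.92, 10.70 and 10.49 in homogenate. The gap between fractions was the narrowest of the 8 genes in both treatments, at 0.94 in mimic and 0.53 in control rats. Rspo2 differed by 1.52 ± 0.19 in mimic rats and 1.49 ± 0.19 in control rats.

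**Figure D1:**
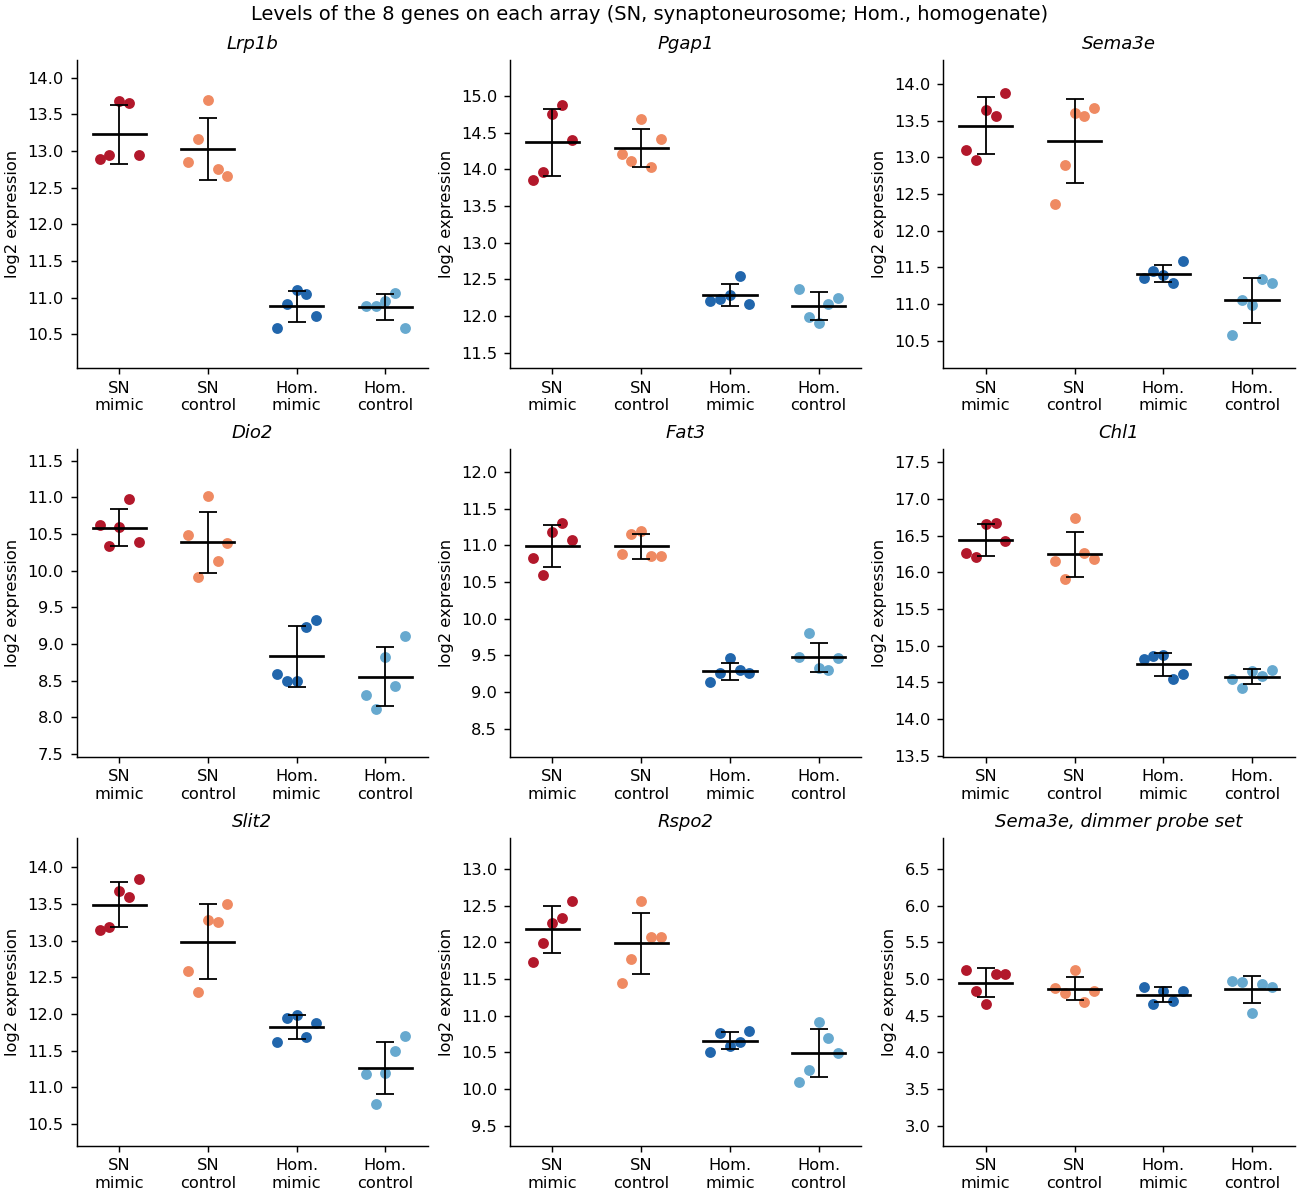
Each point is 1 array (log2 expression, 5 arrays per group), the wide line is the group mean and the error bar 1 SD; every panel spans the same log2 range. For the 8 main probe sets all synaptoneurosome arrays lie above all homogenate arrays, and for the dimmer Sema3e probe set the 4 groups overlap.

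Across the set, the 4 group means kept 1 order for 7 genes, with synaptoneurosome mimic highest, then synaptoneurosome control, homogenate mimic and homogenate control. Fat3 was the exception, with 10.99 in both synaptoneurosome groups, 9.28 in homogenate mimic and 9.47 in homogenate control. Neighbouring mimic and control groups overlapped in both fractions for all 8 genes, where 0.181% of tested genes had all mimic arrays above all control arrays in synaptoneurosomes and 0.491% in homogenate. By the rule's own contrast, the fractions did not overlap for any member in either treatment, where 7.1% of tested genes had all synaptoneurosome arrays above all homogenate arrays in mimic rats and 6.1% in control rats. A limma adjusted p below 0.05 was found for 41.7% of tested genes in mimic rats and 39.8% in control rats. With a higher synaptoneurosome level these were 11.0% in mimic rats, 11.8% in control rats and 7.41% in both treatments. The median difference of the 8 was 1.73 in mimic and 1.77 in control rats, against -0.08 and -0.06 over all tested genes. These values chose the genes and support nothing further.

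**Figure D2:**
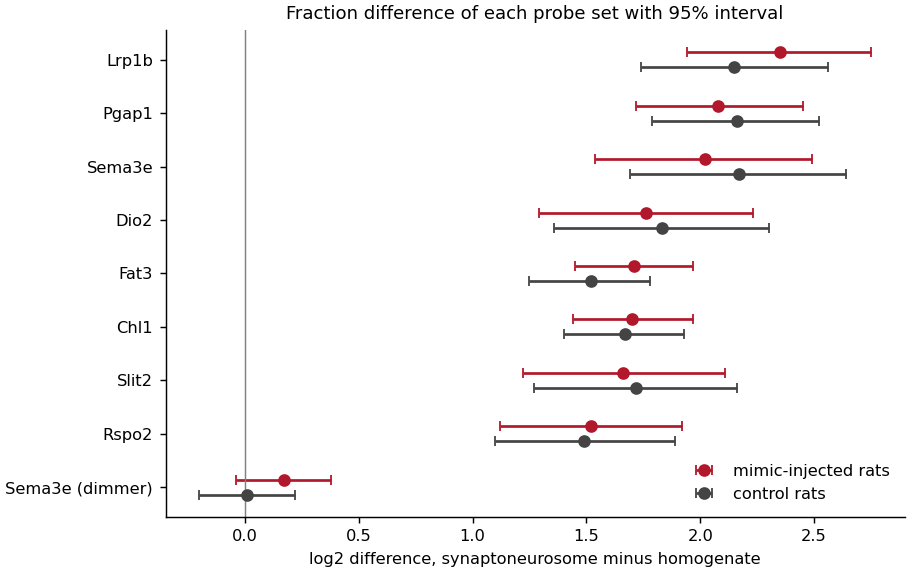
Points give the log2 difference of synaptoneurosome minus homogenate in mimic-injected and control rats, and bars its 95% interval from limma (5 against 5 arrays). The 8 main probe sets lie from 1.49 to 2.35, and the dimmer Sema3e probe set, taken from a fit of all named probe sets, lies at 0.17 and 0.01.

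Genes outside the set reached similar differences, and the 5 with the largest smaller difference are named here as a description. The teneurins Tenm1 and Tenm2, adhesion proteins that bridge synapses, stood at 1.89 and 1.61 in mimic rats and at 1.86 and 1.65 in control rats. Htr2c, a serotonin receptor, stood at 1.55 in mimic and 1.76 in control rats. Cntn4, a GPI-anchored contactin, stood at 1.54 and 1.64, and Rasl10b, a small GTPase of the Ras superfamily, at 1.70 and 1.54.

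The promoters of 5 members were in the RefSeq table (GRCr8), Sema3e, Chl1, Dio2, Fat3 and Pgap1, with 2 windows for Fat3. Each window runs from 250 bases before to 50 after the start of the gene. The windows with the fewest and the most CG steps among them are shown, with each CG in capitals, to show the range of the start regions. CG was searched for as these letters, which read the same on both strands, and 94.5% of the 33469 windows in the table hold at least 1.
Dio2 (GRCr8 chr6:115410545-115410844, minus strand): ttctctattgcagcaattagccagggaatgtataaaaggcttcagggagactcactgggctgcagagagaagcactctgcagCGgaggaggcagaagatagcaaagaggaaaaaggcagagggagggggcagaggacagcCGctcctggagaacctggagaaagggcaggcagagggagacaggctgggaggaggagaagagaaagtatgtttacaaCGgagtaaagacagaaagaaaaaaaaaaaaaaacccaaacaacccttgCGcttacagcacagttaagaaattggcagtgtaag
Fat3 (GRCr8 chr8:21555191-21555490, minus strand): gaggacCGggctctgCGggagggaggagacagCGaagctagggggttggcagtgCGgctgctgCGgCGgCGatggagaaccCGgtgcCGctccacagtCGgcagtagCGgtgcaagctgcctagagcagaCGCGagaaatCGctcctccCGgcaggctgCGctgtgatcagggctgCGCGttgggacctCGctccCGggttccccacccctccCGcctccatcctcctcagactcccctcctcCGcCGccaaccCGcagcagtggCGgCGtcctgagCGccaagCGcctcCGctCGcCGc
The Dio2 window held 4 CG steps at 49% G and C, and this Fat3 window 31 at 71%, against a median of 7 and 51.7% over all windows. The other windows held 27 for Pgap1, 16 for Sema3e, 13 for the second Fat3 window and 11 for Chl1. The windows differed widely in CG content, and a match is a description of the letters only.

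Whether the relatives of the 8 genes shared their higher synaptoneurosome level was examined, with relatives listed by family or pathway. The lists were made with earlier results of these data known, so the shares below are not an independent test. Of 101 tested relatives, 30 rose and 10 fell in synaptoneurosomes of mimic rats, and 43 rose and 11 fell in control rats (limma, adjusted p below 0.05 over all 15465 genes). The share that rose was 29.7% in mimic rats, against 11.0% of all tested genes, and 42.6% in control rats, against 11.8%. The share that fell was 9.9% in mimic rats and 10.9% in control rats, against 30.8% and 28.0% of all tested genes. Without the 3 arrays that stood apart, 39 rose and 20 fell in mimic rats and 36 rose and 15 fell in control rats, while 16.1% and 14.8% of all tested genes rose and 35.4% and 29.0% fell. Quantile scaling gave 40 that rose and 7 that fell in mimic rats and 48 and 6 in control rats. Over all tested genes it gave 2077 higher and 2938 lower in mimic and 2420 and 2472 in control rats, against 1697 and 4756 and 1818 and 4332 as deposited. With array medians set equal, 1069 were higher and 5740 lower in mimic rats.

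Most tested relatives of Chl1 and Fat3 rose. The L1 family and the contactins, adhesion proteins of axons and dendrites, were listed with Ncam1 and Ncam2, which belong to neither. Of these 11 tested genes, 7 rose in mimic rats and 9 in control rats, and 0 fell. Ncam1 and Ncam2 were among those that rose in both treatments. Cntn4 rose by 1.54 ± 0.18 in mimic and 1.64 ± 0.18 in control rats (limma adjusted p = 3.1e-06 and 2.06e-06). L1cam, the founding member, rose by 1.37 ± 0.24 and 1.60 ± 0.24 (0.00015 and 3.8e-05), and Ncam2, a neural adhesion molecule, by 1.16 ± 0.20 and 1.15 ± 0.20. L1cam read 12.94 to 14.27 in synaptoneurosome mimic, against 12.11 to 12.44 in homogenate mimic, so the fractions did not overlap. The list's median was 0.86 in mimic and 0.96 in control rats.

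The Fat, Dachsous and Celsr cadherins, large proteins that bind one another between cells, were listed with Fjx1, Vangl1 and Vangl2, which are not cadherins. Of these 10 tested genes, 7 rose in each treatment and 0 fell. The 3 that did not pass were Fjx1, Vangl1 and Vangl2, so all 7 tested cadherins rose. The counts were the same, 7 and 0, without the 3 arrays that stood apart. Fat4 rose by 1.69 ± 0.17 in mimic rats and 1.45 ± 0.17 in control rats (limma adjusted p = 4.84e-07 and 3.09e-06), and its second probe set gave 1.78 and 1.64. Celsr2, a seven-pass cadherin of planar polarity, rose by 1.07 ± 0.16 and 1.13 ± 0.16, and Fat1 by 1.03 ± 0.09 and 1.00 ± 0.09. The LDL receptor family was listed with Lrpap1, which is not a receptor and did not pass in either treatment. Of these 13 tested genes, 5 rose in mimic and 8 in control rats, and 0 fell. Lrp1, an endocytic receptor for apolipoprotein E, rose by 1.14 ± 0.12 in both (limma adjusted p = 1.24e-06 and 1.57e-06). Lrp4, the agrin receptor, rose by 1.18 ± 0.13 and 1.06 ± 0.13, and Sorl1, a sorting receptor for the amyloid precursor protein, by 1.08 ± 0.14 and 1.10 ± 0.14. Without the 3 arrays that stood apart, 8 genes of the LDL receptor list rose and 2 fell in mimic rats and 5 rose and 1 fell in control rats.

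More guidance genes rose than fell, in the semaphorin list and in the Slit list. Of 12 class 3 semaphorin genes and receptors, 4 rose and 1 fell in mimic rats and 5 rose and 1 fell in control rats. The share that rose was 33.3% in mimic and 41.7% in control rats, against 11.0% and 11.8% of all tested genes. The share that fell was 8.33% in each treatment, against 30.8% and 28.0% of all tested genes. Without the 3 arrays that stood apart, 5 of the list rose and 1 fell in each treatment. The ligand Sema3c rose by 1.03 ± 0.30 and 1.39 ± 0.30 (limma adjusted p = 0.0105 and 0.00145), and the receptors Plxna1 and Plxna2 by 1.23 ± 0.19 and 0.84 ± 0.22 in mimic rats and 1.27 ± 0.19 and 0.88 ± 0.22 in control rats. Plxnd1, the receptor of Sema3e, was at 0.20 ± 0.25 in mimic rats and 0.36 ± 0.25 in control rats and did not pass (limma adjusted p = 0.553 and 0.267). Sema3g, named after its values were seen as the 1 gene of the list that fell, was at -0.65 ± 0.06 and -0.57 ± 0.06.

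Of 10 genes of Slit signalling, 3 rose and 2 fell in mimic rats and 4 rose and 3 fell in control rats. Beside these counts, 11.0% of all tested genes rose and 30.8% fell in mimic rats. For control rats these background shares were 11.8% and 28.0%. Without the 3 arrays that stood apart, 4 of the list rose and 2 fell in mimic rats. In control rats 3 of the list rose and 2 fell without them. Slit1 rose by 0.97 ± 0.35 in mimic and 1.23 ± 0.35 in control rats (limma adjusted p = 0.0345 and 0.0102), and in mimic rats it lost its call without homogenate mimic 3, 4 or 5 or synaptoneurosome mimic 4 or 5 (0.0517 to 0.0996). The receptors Robo1 and Robo2 rose by 0.88 ± 0.21 and 0.91 ± 0.20 in mimic rats and by 0.97 ± 0.21 and 0.97 ± 0.20 in control rats. Robo4, the endothelial member, and Srgap2, a GTPase activator downstream of Robo, were named after their values were seen as the 2 that fell in both treatments. They stood at -0.41 ± 0.07 and -0.49 ± 0.07 in mimic rats and at -0.48 ± 0.07 and -0.52 ± 0.07 in control rats. Robo4 had 3 probe sets, and only the brightest was examined. Beside the fall of Robo4, the mean level of the 7 endothelial markers ranged from 6.18 to 6.31 in synaptoneurosome mimic, against 8.41 to 8.73 in homogenate mimic, and from 6.19 to 6.72 in synaptoneurosome control, against 8.32 to 8.82 in homogenate control; their part in the result was not tested.

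Of 10 genes around the R-spondins, 3 rose and 1 fell in mimic rats and 6 rose and 1 fell in control rats, and without the 3 arrays that stood apart 5 rose in each treatment, with 1 fall in mimic and 0 in control rats. The gene that fell was Ctnnb1, or beta-catenin, named after its values were seen, at -0.27 ± 0.07 in mimic and -0.20 ± 0.07 in control rats. Rspo3 rose by 0.78 ± 0.19 in mimic and 1.00 ± 0.19 in control rats (limma adjusted p = 0.00286 and 0.000447), and Rspo1 by 0.29 ± 0.10 and 0.45 ± 0.10. Rspo1 lost its call in mimic rats without homogenate mimic 1 or 3 or synaptoneurosome mimic 2 or 4 (limma adjusted p from 0.053 to 0.0776). The receptor Lgr5 rose by 0.64 ± 0.20 and 0.73 ± 0.20. The ubiquitin ligases that R-spondins clear from the membrane differed less, with Znrf3 at 0.18 ± 0.08 and 0.25 ± 0.08 and Rnf43 at -0.16 ± 0.10 and -0.20 ± 0.10, and only Znrf3 in control rats passed (limma adjusted p = 0.0167).

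Few relatives of Pgap1 passed in either direction. Of 25 genes of GPI anchor synthesis and remodelling, 1 rose and 1 fell in mimic rats and 4 rose and 1 fell in control rats. Pigq and Piga, which belong to the same complex that starts the anchor, went opposite ways. Pigq rose by 0.58 ± 0.07 in mimic and 0.54 ± 0.07 in control rats (limma adjusted p = 3.19e-06 and 7.42e-06), and Piga was at -0.93 ± 0.14 and -1.09 ± 0.14 (4.11e-05 and 1.04e-05). Pgap2 and Pgap3, which act on the anchor after Pgap1, were at -0.02 ± 0.06 and -0.18 ± 0.28 in mimic rats and 0.05 ± 0.06 and 0.35 ± 0.28 in control rats, and neither passed. Without the 3 arrays that stood apart the list had 2 that rose and 8 that fell in mimic rats and 3 that rose and 7 that fell in control rats, so the count of falls changed with the arrays used.

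Of 10 tested genes of thyroid hormone handling 0 rose and 5 fell in each treatment, with a median of -0.32 in mimic and -0.24 in control rats. Crym, which binds thyroid hormone in the cytosol, was at -1.49 ± 0.25 in mimic and -0.96 ± 0.25 in control rats (limma adjusted p = 0.000134 and 0.00598). Slco1c1, a thyroxine transporter, was at -0.78 ± 0.20 and -0.54 ± 0.20 (0.00453 and 0.0424), and Klf9, a transcription factor induced by the hormone, at -0.51 ± 0.14 and -0.45 ± 0.14. The deiodinases Dio1 and Dio3 lay below the filter and were not tested. In control rats the call of Slco1c1 was lost without any 1 of 9 arrays (limma adjusted p from 0.05 to 0.113), and that of Klf9 without the 3 arrays that stood apart (0.0656). Without those 3 arrays 1 rose and 6 fell in mimic rats and 1 rose and 4 fell in control rats.

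**Figure D3:**
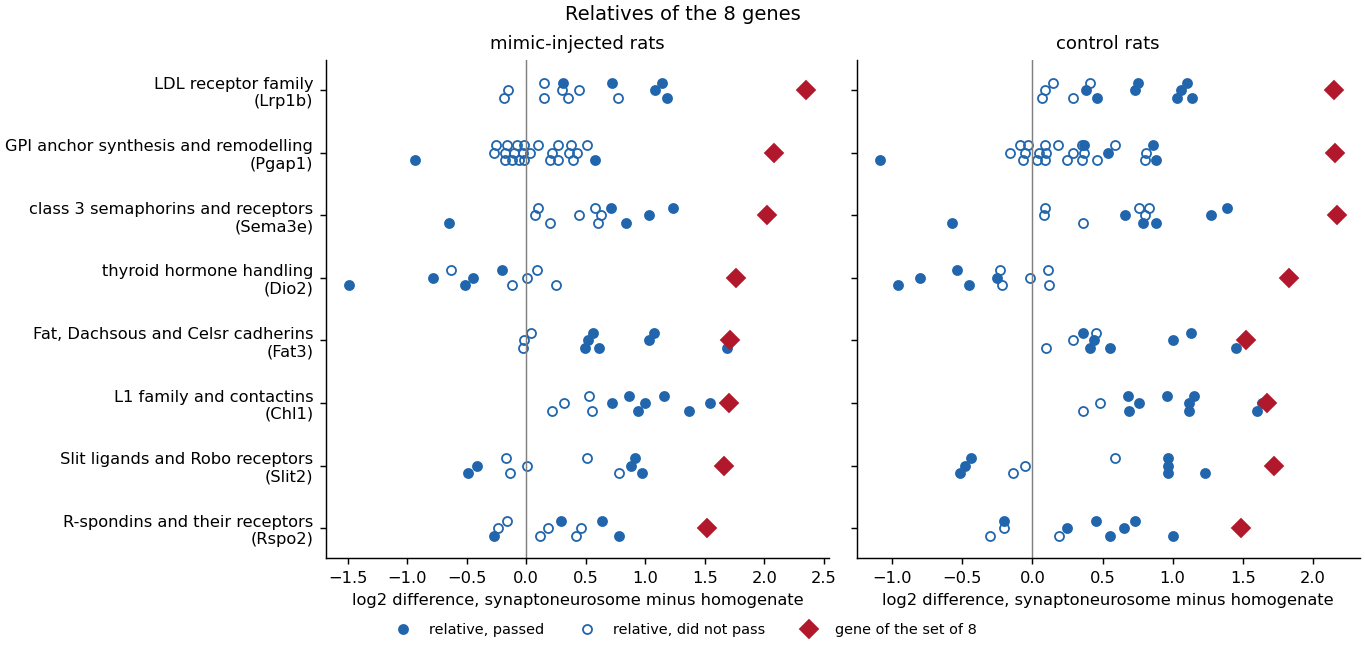
Each circle is a relative of 1 of the 8 genes, placed at its log2 difference of synaptoneurosome minus homogenate, filled where it passed limma at an adjusted p below 0.05; the diamond is the gene of the set itself. The cadherin and L1 lists lie mostly to the right of 0, and the thyroid hormone list mostly to the left, with Dio2 at 1.76 in mimic and 1.83 in control rats.

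Astrocyte markers were measured beside Dio2, which astrocytes express. Of 10 tested, 5 rose and 0 fell in each treatment (limma), with a median of 0.22 in mimic and 0.35 in control rats. In mimic rats 7 lay above 0 and in control rats 10. Among those that rose were Gfap, at 0.91 ± 0.28 in mimic and 0.76 ± 0.28 in control rats, and the glutamate transporter Slc1a3, at 0.59 ± 0.13 and 0.82 ± 0.13. Their mean level ranged from 11.80 to 12.14 in synaptoneurosome mimic, against 11.61 to 11.86 in homogenate mimic, and from 11.72 to 12.36 in synaptoneurosome control, against 11.47 to 11.72 in homogenate control. Microglial markers rose for 2 of 8 in mimic and 4 of 8 in control rats. Among 5 excitatory neuron markers 1 rose and 2 fell in each treatment, with a median of -0.51 in mimic and -0.54 in control rats. Of those that fell, Nrgn, a dendritic calmodulin-binding protein, was at -1.86 ± 0.13 and -1.43 ± 0.13. Interneuron markers had 0 that rose and 4 of 8 that fell in mimic rats and 1 that rose and 0 that fell in control rats. The difference between treatments passed for 0 of 8, but also for 0.0% of all tested genes, so that count is not particular to these markers. Interneuron marker means ranged from 8.73 to 10.19 in synaptoneurosome mimic and from 8.56 to 10.72 in synaptoneurosome control. Homogenate means ranged from 9.48 to 9.71 in mimic and from 9.18 to 9.64 in control rats. Of 9 mural and fibroblast markers, 1 rose in each treatment, 4 fell in mimic rats and 5 fell in control rats. Beside all these marker counts, 11.0% of all tested genes rose and 30.8% fell in mimic rats. In control rats 11.8% of all tested genes rose and 28.0% fell. The part of any cell type in the levels of the 8 genes was not tested.

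Mimic was then compared with control within each fraction, a contrast the choice of genes did not use. In synaptoneurosomes 0 of 8 members passed limma, where 0.0% of all tested genes did. There 1 member had an unadjusted limma p below 0.05, as had 542 of all 15465 tested genes. In homogenate 0 of 8 passed, again with 0.0% of all tested genes. There too 1 member had an unadjusted limma p below 0.05, as had 268 of the 15465 genes. That gene was Slit2 in both fractions. It was higher in mimic arrays by 0.50 ± 0.21 in synaptoneurosomes (95% interval 0.06 to 0.95, limma adjusted p = 0.933) and by 0.56 ± 0.21 in homogenate (0.11 to 1.00, adjusted p = 1). Mimic and control values of Slit2 overlapped in both fractions, and they averaged 13.49 ± 0.31 and 12.98 ± 0.51 in synaptoneurosomes and 11.82 ± 0.16 and 11.27 ± 0.35 in homogenate (SD, n = 5 each). Its adjusted p, over 31 settings, ran from 0.36 to 1 in synaptoneurosomes and from 0.584 to 1 in homogenate. The unadjusted limma p ran from 0.00337 to 0.108 in synaptoneurosomes and from 0.00162 to 0.0594 in homogenate. It therefore did not stay below 0.05 in either fraction.

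The other members lay nearer to 0. In synaptoneurosomes their differences ran from 0.01 for Fat3 to 0.21 for Sema3e, and in homogenate from -0.19 for Fat3 to 0.36 for Sema3e. The interval of Sema3e was -0.26 to 0.69 in synaptoneurosomes and -0.11 to 0.84 in homogenate, and that of Lrp1b -0.21 to 0.61 and -0.40 to 0.41. All 8 members were above 0 in synaptoneurosomes and 7 of 8 in homogenate, where 45.5% and 59.5% of all tested genes were. The members' medians were 0.20 and 0.17, against -0.01 and 0.02 over all tested genes. Signs near 0 were not stable in synaptoneurosomes. Without the 3 arrays that stood apart Fat3 was at -0.10, Lrp1b at 0.06, Pgap1 at 0.03, Sema3e at 0.37 and Slit2 at 0.68, and Dio2, Chl1 and Rspo2 lay from 0.15 to 0.18. Pgap1 was at -0.01 without synaptoneurosome mimic 3 and at -0.05 without mimic 4. Fat3 was below 0 without synaptoneurosome mimic 3, 4 or 5 or control 1, 4 or 5, with values down to -0.07. The mimic effect in synaptoneurosomes minus that in homogenate ran from -0.15 for Sema3e to 0.20 for Lrp1b and Fat3. It equals the fraction difference in mimic rats minus that in control rats, the values that chose the genes, so it is given without a test.

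**Figure D4:**
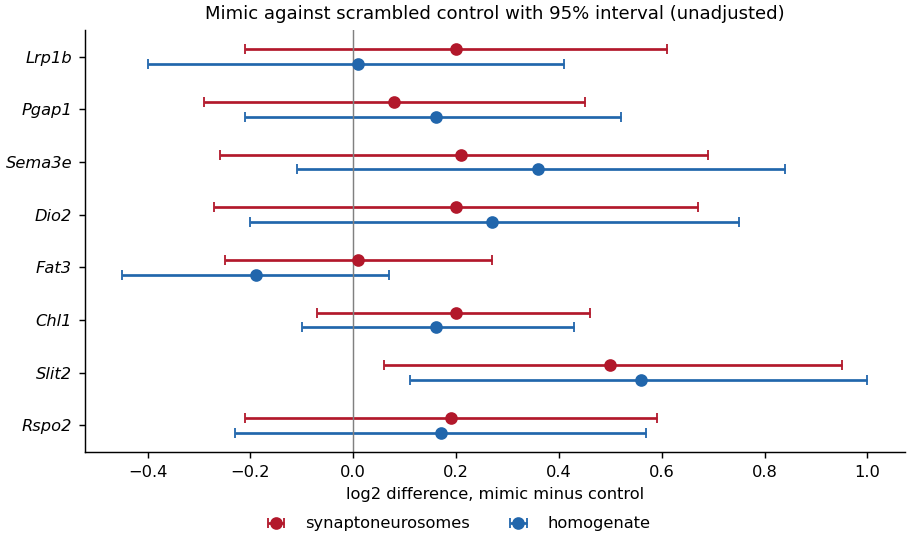
Points give the log2 difference of mimic minus control for each gene in synaptoneurosomes and in homogenate, and bars its 95% interval from limma, not adjusted for the number of genes. In this main fit Slit2 lies at 0.50 and 0.56 with intervals above 0, and the intervals of the other 7 genes include 0.

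Deviations of arrays from their group mean, which leave out the contrast used for the choice, showed how far the members moved together. Pearson's r over the 20 arrays was above 0 for all 28 pairs of members, from 0.01 to 0.79, with a median of 0.41. It was 0.60 over the 10 synaptoneurosome arrays and 0.07 over the 10 homogenate arrays. The arrays of a pair share their RNA, labelling and normalization, so these values are a description. Without the 3 arrays that stood apart the median over 17 arrays was 0.60.

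Among the secreted cues, set side by side after their values were seen, Sema3e had r = 0.79 with Slit2 and 0.79 with Rspo2, and Slit2 had 0.66 with Rspo2. Over the 17 arrays these were 0.69, 0.82 and 0.66. Lrp1b had 0.65 with Pgap1, 0.65 with Fat3 and 0.58 with Chl1, and over 17 arrays 0.75, 0.66 and 0.64. Chl1 had 0.62 with Pgap1, 0.62 with Slit2 and 0.61 with Rspo2, and less with Sema3e (0.50), Dio2 (0.40) and Fat3 (0.36). Over the 10 homogenate arrays Chl1 had -0.21 with Pgap1, 0.54 with Slit2 and 0.24 with Rspo2. Between the secreted cues and Lrp1b, Pgap1 or Fat3, r ran from 0.01 for Fat3 and Slit2 to 0.48 for Pgap1 and Slit2. The pairs of Lrp1b with Slit2 and with Sema3e were at 0.07 and 0.16 over 20 arrays and at 0.52 and 0.65 over 17. Sema3e and Slit2 had r = 0.66 and 0.63 with the component on which those arrays stood apart, and Lrp1b had -0.44.

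**Figure D5:**
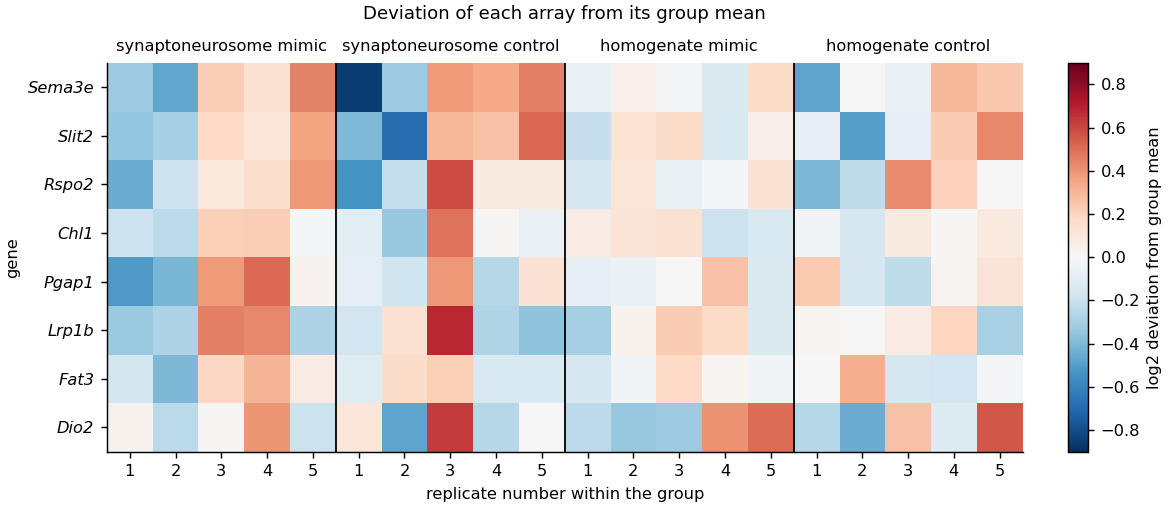
Colour gives the log2 deviation of each array (columns, by group and replicate number) from the mean of its group for each gene (rows). Sema3e, Slit2 and Rspo2 are low together in synaptoneurosome control 1 and control 2, and Lrp1b is low in control 4, control 5 and mimic 5, where Sema3e is high. Lrp1b and Sema3e are both low in synaptoneurosome mimic 1 and mimic 2 and both high in mimic 3, mimic 4 and control 3.

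The 5 genes outside the set whose deviations were most like the mean of the 8 were Nceh1, Erap1, Ccdc32, Slc1a1 and Ncan, with r from 0.86 to 0.89 over 20 arrays and from 0.88 to 0.94 over 17. The median r over all tested genes was -0.04. Nceh1, a cholesteryl ester hydrolase, and Slc1a1, a neuronal glutamate transporter, stood at 1.48 and 1.34 above homogenate in mimic rats and at 1.72 and 1.71 in control rats. Erap1, a peptidase of the endoplasmic reticulum, stood at 0.79 and 0.87, and Ncan, a proteoglycan of the extracellular matrix, at 0.56 and 0.61. Ccdc32 stood below homogenate, at -0.55 and -0.47, while its deviations followed those of the 8.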

How the data were processed

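Arrays measured biotin-labelled RNA, 100 ng of total RNA per array, amplified with the WT Plus kit per the labels. The authors deposited log2 expression values, and the submitters' processing notes name RMA and Transcriptome Analysis Console without a version. RMA compresses differences of dim transcripts. The 68842 probe sets were used as deposited, and array medians ran from 5.11 to 5.26. Platform annotation, which can be old, gave 1 symbol to 23446 probe sets, several to 505 and none to 44891 (unnamed here). Gene numbers matched 22077 to a current gene table.

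The brightest probe set stood for a gene, and the lowest 30% of genes by mean were left out. Limma 3.58.1 in R 4.3.3 was fitted with 4 group means over all 20 arrays (16 residual and 2.56 prior degrees of freedom), with Benjamini-Hochberg adjustment over 15465 genes and a threshold of 0.05. Tests are two-sided, and ± is limma's standard error unless SD is written. Because the groups share 1 spread, errors for homogenate also carry the larger spread of synaptoneurosomes. Errors for synaptoneurosomes likewise carry the smaller spread of homogenate, so their intervals can be too narrow. The number of arrays limits precision. Tables and plots used Python 3.11.15. The members, relatives, markers and the 3 arrays set aside were chosen with earlier results of these data known. Named relatives were those that passed 1 way in both treatments, up to 3 per list by size. Plxnd1, Pgap2, Pgap3, Znrf3, Rnf43 and those said to be named after their values were seen lie outside this rule. They were added with their values known. The markers named singly, Gfap, Slc1a3 and Nrgn, were also picked outside any such rule. RefSeq sequences (GRCr8) matched 5 of 8 members by symbol. The replicate numbers' pairing and the other alternatives are given in the closing section.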

Additional observations from a re-analysis of the deposited data

Results flagged for a closer look

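The dimmer Sema3e probe set read 4.54 in homogenate control 3, against 4.89 to 4.97 in the other 4 arrays of that group, and the gap to its nearest neighbour took 0.81 of the range of the group. It was the 1 group of 36 (9 probe sets by 4 groups) with a single array past Dixon's critical value of 0.71, and chance flags about 1 in 20 groups. The probe set lies below the filter level, and no result of the main Sema3e probe set rests on it.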

How the results depend on the processing

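The median difference between fractions of the 8 genes ran from 1.67 to 1.97 in mimic rats and from 1.69 to 2.06 in control rats over the alternatives, and from 1.65 to 1.82 and 1.66 to 1.92 with single arrays left out. The count of members that passed for mimic against control was 0 under every alternative run. Leaving out single arrays, 27 to 36 relatives rose and 9 to 12 fell in mimic rats, and 36 to 49 rose and 7 to 12 fell in control rats, with 7 falls without homogenate control 5 or without synaptoneurosome control 4. Falls in control rats numbered 6 with quantile scaling, and in mimic rats 19 with array weights and 20 without the 3 arrays that stood apart. Over all tested genes, the higher count in mimic rats was 1069 with array medians set equal, 4110 with no filter, 1028 with the lowest 50% left out (fewer genes tested) and 2974 with array weights, and in control rats 3287 with no filter. The lower count was 2938 in mimic and 2472 in control rats with quantile scaling. Higher calls were 26.3% of all calls in mimic and 29.6% in control rats, 41.4% and 49.5% with quantile scaling and 15.7% and 23.0% with equal medians. The causes were not tested.

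Slco1c1 in control rats lost its call with quantile scaling (limma adjusted p = 0.0825) and without any of homogenate control 2, 3, 4 and 5, homogenate mimic 1, 2 and 5, and synaptoneurosome control 1 and 4 (0.05 to 0.113). Klf9 in control rats lost it with quantile scaling, array weights and without the 3 arrays (0.0569, 0.059 and 0.0656). In mimic rats Slit1 lost it with quantile scaling (0.0795), with equal medians (0.052) and without homogenate mimic 3, 4 or 5 or synaptoneurosome mimic 4 or 5 (0.0517 to 0.0996). Rspo1 lost it with equal medians (0.0776) and without homogenate mimic 1 or 3 or synaptoneurosome mimic 2 or 4 (0.053 to 0.0776).

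Several uncalled mimic differences changed sign. Fat3 in synaptoneurosomes was at -0.01 with equal medians, -0.04 with array weights and -0.10 without the 3 arrays, and from -0.07 to 0.11 with single arrays left out. Lrp1b in homogenate was at -0.02 with quantile scaling and -0.05 with array weights (-0.07 to 0.08), and Pgap1 in synaptoneurosomes ran from -0.05 to 0.21. The difference of both effects was for Chl1 -0.15 with quantile scaling, -0.01 with equal medians and -0.05 with array weights (-0.05 to 0.16). For Slit2 it was 0.05 with array weights and 0.12 without the 3 arrays (-0.22 to 0.08), and for Rspo2 -0.02 with equal medians and -0.02 without the 3 arrays (-0.11 to 0.17). With single arrays left out it ran from -0.20 to 0.05 for Pgap1 and from -0.21 to 0.08 for Dio2.

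The labels number the arrays of each group but do not say what a shared number marks. Deviations of synaptoneurosome and homogenate arrays with the same number had r from 0.10 to 0.35 in mimic rats and 0.24 to 0.48 in control rats, and 5 of 5 synaptoneurosome arrays in each treatment correlated best with their own number, a hint from the data and not the design. Mimic and control arrays of the same number had r from -0.30 to 0.83 in synaptoneurosomes (0.55, 0.59, 0.52, -0.30 and 0.83 for numbers 1 to 5) and from 0.02 to 0.41 in homogenate. With the replicate block, 41 relatives rose and 10 fell in mimic rats and 49 rose and 12 fell in control rats, and over all genes 1872 rose and 5108 fell and 2056 rose and 4691 fell. For mimic against control 0 genes passed with the block. The dimness of the second Sema3e probe set limits what it can show.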
